A study of Mus musculus with 8 samples.

Results

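Endothelial-to-mesenchymal transition (EndMT) is the process in which endothelial cells loosen their junctions and take up genes of fibroblasts or of the contractile cells of the vessel wall, and in the heart it has been studied as a source of matrix-producing cells after injury. The transcription factors Snai1 (Snail), Snai2 (Slug), Zeb1 and Zeb2 bind E-box sequences and repress genes of cell adhesion, and they are usually listed as its drivers. Vimentin (Vim), smoothelin (Smtn), transgelin (Tagln), smooth muscle α-actin (Acta2), calponin (Cnn1) and the calcium-binding protein S100a4 are read as its mesenchymal products. Acta2, Tagln and Cnn1 are, however, also the defining contractile genes of smooth muscle cells. Smooth muscle cells and pericytes lie against the endothelium, and pericytes held less Acta2 and Tagln than smooth muscle cells in these libraries. These 10 genes were followed here gene by gene, and all 10 were found among the 16791 genes of a table of unique molecular identifiers (UMIs, each standing for 1 captured transcript).

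The cells came from ventricles of adult Pdgfb-iCreERT2-R26R-Brainbow2.1 mice, in which tamoxifen (150 mg/kg) switches on a Confetti fluorophore in cells that use the Pdgfb promoter, and were sorted as CD31+, Confetti+ and podoplanin-. The healthy group was 4 mice without surgery (227, 228, 239 and 240), taken 21 days after tamoxifen. The MI group was 4 mice (244, 250, 255 and 256) with a myocardial infarction 14 days after tamoxifen, taken 7 days after the infarction. Each mouse gave 1 library, so the replicates were separate animals, and infarction, surgery and sequencing depth cannot be told apart in this design.

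Endothelial cells were taken as cells with a UMI of Cdh5 or Kdr and 0 UMIs of Rgs5, Dcn, Myh11 and Ptprc, which left 25232 of 31028 cells, 10921 from healthy and 14311 from MI mice (2289 to 4217 per mouse). The endothelial genes Egfl7 and Pecam1 had a UMI in 96.1% and 85.6% of these gated cells, and of the mural genes checked Notch3 and Pdgfrb had one in 0.285% and 0.170%, Des in 1.26%, Kcnj8 in 1.38%, Abcc9 in 1.90% and Myl9 in 2.15%. Clustering the gated cells without the 10 genes gave 13 classes, 12 of which could be named from marker genes, and 598 gated cells (2.37%) fell in cardiomyocyte-like, macrophage-like or erythroid-like classes despite the gate. As a reference, 378 pericytes and 258 smooth muscle cells were taken from the same libraries by their Rgs5 and Myh11 UMIs, and 397 leukocytes by a UMI of Ptprc and none of Cdh5 and Kdr. Pecam1 had a UMI in 63.5% of the pericytes and 63.2% of the smooth muscle cells, and Cdh5 in 59.5% and 57.4%. The part of endothelial transcripts in the levels of these mural cells was not tested. For shares of cells beside the gated cells, only leukocytes that also had 0 UMIs of Rgs5, Dcn and Myh11 were used (74 healthy, 69 of them deep enough for thinning to 1000 UMIs, and 292 MI).

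The libraries were not alike. Gated cells had a median of 1645 to 2100 UMIs in healthy mice and of 3374 to 4657 in MI mice, so shares of cells with a UMI were compared after random thinning to 1000 UMIs per cell, for which 1167 healthy cells and 0 MI cells were too shallow. Healthy 228 and Healthy 239 shared 2041 barcodes, 2030 of which were copies (90% or more of the UMIs in the cell with fewer fell on the same genes), and Healthy 227 and Healthy 228 shared 316, of which 301 were such copies. Among gated cells, 1294 (48.8%) in Healthy 228 and 206 (9.0%) in Healthy 227 were copies, so these libraries are not fully independent, and results are given with and without the copied cells where that matters. Without them, the share of Healthy 228 cells with a Vim UMI at 1000 UMIs went from 50.2% to 43.7%. For S100a4 it went from 0.346% to 0.0760%, and for Zeb2 from 0.148% to 0%.

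Of the 10 genes, 9 passed the filter on low counts and Cnn1 did not. With UMIs summed per mouse, Vim, Snai1, Tagln and Smtn rose after MI and Snai2 fell, while Zeb1, Zeb2, S100a4 and Acta2 did not pass the test (edgeR quasi-likelihood test, Benjamini-Hochberg adjusted p of 0.05 over 12137 genes). These 4 higher calls stand against a background in which 18.9% of all tested genes were called higher, and the 1 lower call against 18.7% called lower. The median log2 fold change was 1.05 over the 9 genes and -0.02 over all tested genes. Without the copied cells 3 genes were called higher and 1 lower, the lost call being Smtn (adjusted p = 0.057, edgeR), where 18.1% of all tested genes were called higher and 18% lower.

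**Figure D1:**
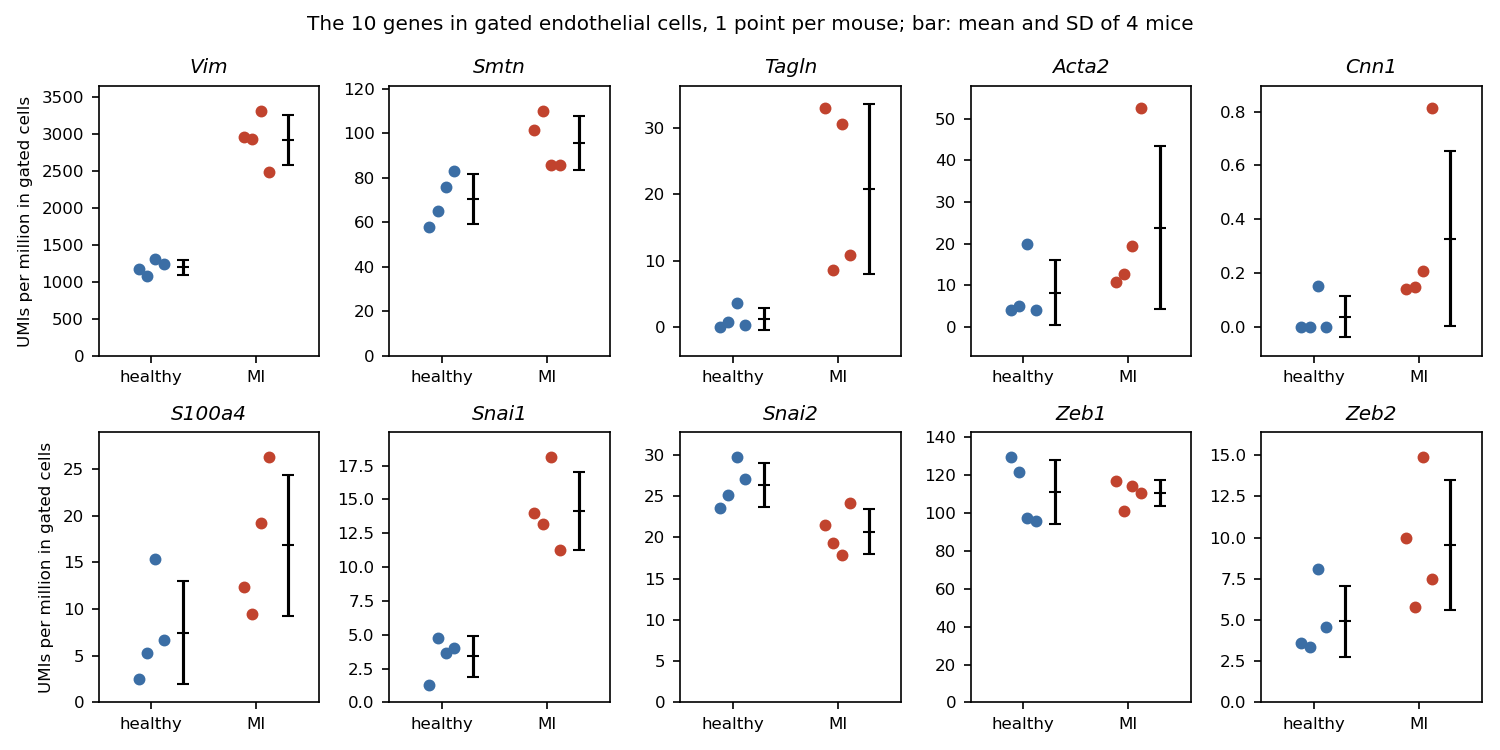
Level of each of the 10 genes in gated endothelial cells, in CPM (UMIs scaled to a common total), with 1 point per mouse and the mean and SD of 4 mice beside the points. All 4 MI mice lie above all 4 healthy mice for Vim, Smtn, Tagln and Snai1, while Acta2 is high in 1 healthy mouse (19.8) and in 1 MI mouse (52.6). The share of all genes lying apart in this way by level is not given here, so these genes are only described.

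Vim, an intermediate filament protein, was at 1173, 1073, 1311 and 1238 CPM (UMIs of the gene scaled to the same total of UMIs in every mouse) in the healthy mice 227, 228, 239 and 240, and at 2952, 2927, 3314 and 2491 in the MI mice 244, 250, 255 and 256. Every MI mouse was above every healthy mouse. On the log2 scale the change was 1.20 (SE 0.09, adjusted p = 0.00012, edgeR), and it stayed between 1.15 and 1.27 when any 1 mouse was left out. At 1000 UMIs, 50.2% to 54.4% of healthy and 70.3% to 86.0% of MI gated cells had a Vim UMI (exact permutation test over 70 splits, two-sided p = 0.0286, the smallest this design allows).

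Pericytes held less Vim than gated endothelial cells of the same group, and they too were higher after MI. Their level was 807, 749, 805 and 837 CPM in healthy and 2026, 1549, 1474 and 1547 in MI mice (22 to 110 cells per mouse). Every MI value was above every healthy value, as in gated cells. No test was run on these reference cells, many of which also held endothelial UMIs. Smooth muscle cells (10 to 79 per mouse) held 974 to 1272 Vim CPM in healthy mice, overlapping the 1073 to 1311 of gated cells, and 913 to 1661 in MI mice, below the 2491 to 3314 of gated cells. Leukocytes also carried it: at 1000 UMIs, 49.3% of 69 healthy and 55.5% of 292 MI leukocytes had a Vim UMI, with median depths of 2918 and 5582 UMIs before thinning and of 1949 and 4114 in gated cells.

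Smtn, a cytoskeletal protein of contractile smooth muscle, was at 58.0, 65.0, 75.9 and 83.1 CPM in healthy and at 101, 110, 85.6 and 85.6 in MI mice. The groups did not overlap, but the lowest MI mice lay close to the highest healthy mouse. Smtn rose by a log2 fold change of 0.35 (SE 0.13, adjusted p = 0.0487, edgeR), and the adjusted p was above 0.05 without Healthy 227, Healthy 228, Healthy 239, MI 244 or MI 250 (0.0676 to 0.128). It was also above 0.05 with cells thinned before summing (0.0593), with the gate applied to thinned cells (0.0808), with UMIs of both Cdh5 and Kdr required (0.103) and with at most 10% mitochondrial UMIs (0.0502). Smooth muscle cells held 39.5 to 139 CPM of Smtn, a range that takes in all 8 gated values.

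Tagln and Acta2 were far higher in smooth muscle cells than in gated cells of all 8 mice, and so was Cnn1 in 6 of 8 mice. In smooth muscle cells Tagln was at 1367 to 3494 and Acta2 at 3604 to 9967 CPM, and the gated endothelial cells of the 8 mice held at most 33.1 and 52.6. Cnn1 was at 0 to 149 in smooth muscle cells and was close to absent from gated cells, with 1 UMI in all healthy mice together and 3, 3, 4 and 10 UMIs in the MI mice.

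Tagln, an actin-binding protein of smooth muscle that lies on chromosome 9 (chr9:45929619-45936058, minus strand, GRCm38), was at 0, 0.707, 3.66 and 0.286 CPM in healthy mice (0, 4, 24 and 2 UMIs). It was at 33.1, 8.55, 30.7 and 10.9 in MI mice (708, 174, 585 and 134 UMIs). Every MI mouse was above every healthy mouse, and the MI mice differed among themselves by more than 3-fold. Tagln rose by a log2 fold change of 4.02 (SE 0.76, adjusted p = 0.0032, edgeR), and 5.85 without Healthy 239, which held 24 of the 30 healthy UMIs. The call rests on the gate: with cells carrying Rgs5, Dcn or Myh11 let in, the log2 fold change was 0.08 (adjusted p = 0.922).

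The rise of Tagln was carried by few cells. At 1000 UMIs a Tagln UMI was found in 0%, 0.0989%, 0.313% and 0.0356% of healthy and in 1.34%, 0.237%, 1.61% and 0.238% of MI gated cells, and these shares overlapped between the groups (exact permutation test, two-sided p = 0.0857). Counting only cells with at least 2 Tagln UMIs at that depth, the shares were 0%, 0.0495%, 0% and 0% in healthy and 0.368%, 0.119%, 0.477% and 0.0681% in MI mice, every MI mouse being above every healthy mouse (exact permutation test, two-sided p = 0.0286), as for 5.55% of all genes. Without thinning, the shares with at least 1 UMI were 0% to 0.75% and 0.817% to 4.18%. Of the leukocytes with 0 of Rgs5, Dcn and Myh11, 0 of 69 healthy and 0 of 292 MI cells had a Tagln UMI at that depth, which allows shares of up to 4.35% and 1.03%. With all leukocytes taken, the share was 0.926% in MI 244 and 0% in the other 7 mice.

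Only MI mice had gated cells with 5 or more Tagln UMIs, 90 cells in all (44, 9, 33 and 4 per mouse). They held 77.0%, 65.5%, 67.9% and 83.6% of the Tagln UMIs of MI 244, 250, 255 and 256. Without them the MI level was 7.81, 2.96, 10.0 and 1.80 CPM, so that MI 250 and MI 256 lay below Healthy 239. These cells were picked for their high counts, by a threshold of 5 UMIs chosen after the values were seen. The lower level therefore follows from the choice and was not tested.

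**Figure D2:**
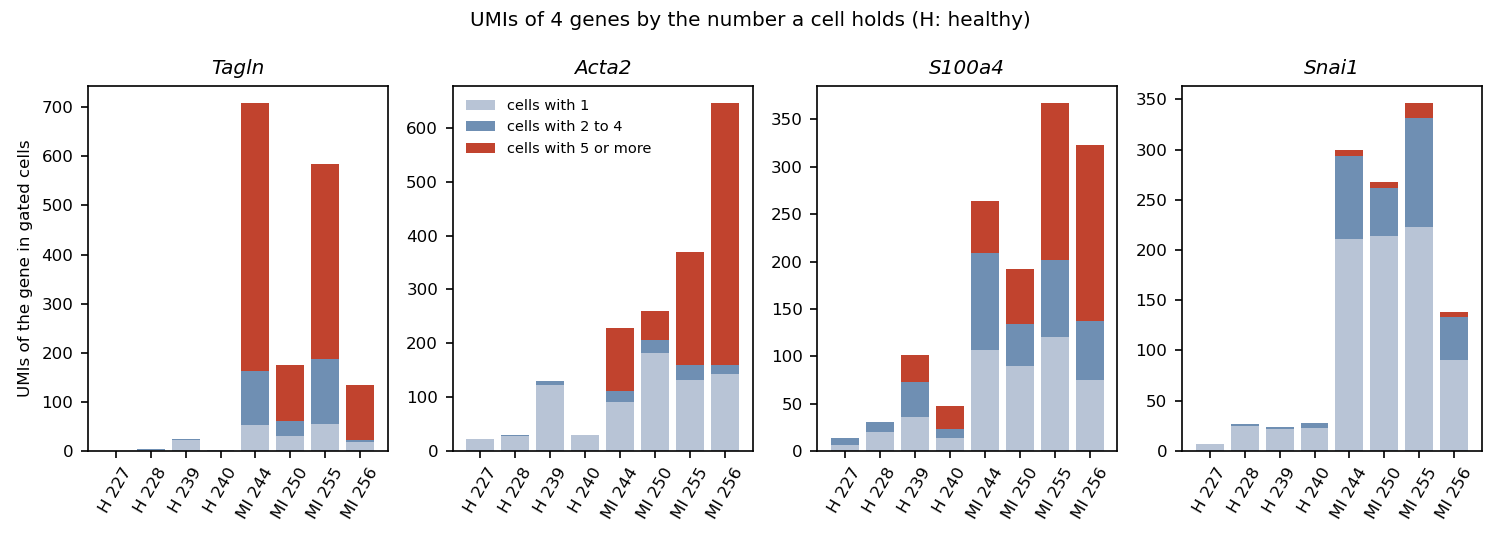
UMIs of Tagln, Acta2, S100a4 and Snai1 in the gated cells of each mouse (y axis, number of UMIs), split by how many UMIs of that gene the cell held. Cells with 5 or more UMIs hold most Tagln UMIs in all 4 MI mice and 75.4% of the Acta2 UMIs of MI 256, whereas Snai1 came almost wholly from cells with 1 to 4 UMIs.

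Acta2, the actin of smooth muscle (chr19:34241090-34255590, minus strand, GRCm38), was at 3.98, 5.12, 19.8 and 4.15 CPM in healthy and at 10.7, 12.8, 19.4 and 52.6 in MI mice. Healthy 239 was as high as the upper MI mice, and MI 256 stood far above the rest. The log2 fold change was 1.42 (SE 0.64, adjusted p = 0.105, edgeR). Without Healthy 239 it was 2.33 (adjusted p = 0.0215), without MI 256 it was 0.68 (adjusted p = 0.306), and with cells carrying Rgs5, Dcn or Myh11 let in it was -0.86 (adjusted p = 0.323). The log2 fold change was smaller at equal depth. It was 0.63 (adjusted p = 0.420, edgeR) with cells thinned before summing and 0.47 (adjusted p = 0.589) with the gate applied to thinned cells.

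At equal depth, the share of leukocytes with an Acta2 UMI was set beside that of gated cells, without a test. A UMI was found in 0.851% of healthy and 0.992% of MI gated cells, with Healthy 239 at 1.88% and the other healthy mice at 0.297% to 0.569%, and in 1 of 69 (1.45%) healthy and 4 of 292 (1.37%) MI leukocytes, whose exact 95% interval in MI was 0.374% to 3.47%. With all leukocytes taken, the share was 0% to 4% per healthy and 0.926% to 6% per MI mouse. The share of gated cells with an Acta2 UMI was not above these, and no expression is read from the share alone. Gated cells with at least 2 Acta2 UMIs at 1000 UMIs made up 0% in each healthy mouse and 0.0525%, 0.0474%, 0.269% and 0.204% in the MI mice (exact permutation test, two-sided p = 0.0286). Across whole libraries Acta2 was at 59.9, 299, 490 and 85.0 CPM in healthy and at 54.0, 106, 84.3 and 161 in MI mice, with 92.1% to 95.3% of the healthy and 58.0% to 68.2% of the MI UMIs in mural cells. Healthy 239, the healthy mouse with the highest Acta2 in gated cells, was also the highest healthy mouse for its library, whereas MI 256, the highest of all 8 mice in gated cells, was below Healthy 228 and Healthy 239 for its library. In Healthy 239 the gated level was between 15.6 and 61.7 over 9 classes, and at most 24.5 in the 8 of them drawn in the plot of levels by class.

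Beside the many cells with 1 UMI, 31 gated cells held 5 or more Acta2 UMIs, and all were from MI mice (7, 3, 14 and 7). Of these, 18 were Plvap-high-like and 10 arterial-like. The 7 cells of MI 256 held 75.4% of its Acta2 UMIs, and 1 of them held 182. Without the 31 cells the MI level was 5.22, 10.1, 8.45 and 13 CPM, below Healthy 239 and above the other 3 healthy mice. These cells were picked for their high counts, by a threshold chosen after the values were seen, so the lower level follows from the choice and was not tested.

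S100a4, also known as fibroblast-specific protein, was at 2.54, 5.30, 15.4 and 6.72 CPM in healthy and at 12.3, 9.43, 19.2 and 26.3 in MI mice. The groups overlapped through Healthy 239. The log2 fold change was 1.05 (SE 0.46, adjusted p = 0.0994, edgeR), and without Healthy 239 it was 1.67 (adjusted p = 0.0184). Part of the level came from few cells: 1 cell of MI 256 held 127 of its 323 UMIs. Without the cells with 5 or more S100a4 UMIs (0, 0, 3 and 2 healthy, and 6, 8, 17 and 5 MI), a threshold chosen after the values were seen and not tested, the levels were 2.54, 5.30, 11.1 and 3.30 CPM in healthy and 9.80, 6.61, 10.7 and 11.2 in MI mice. Lower levels follow from picking cells by their high counts.

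With all cells, the S100a4 difference passed the test with the gate applied to thinned cells (log2 fold change 1.15, adjusted p = 0.0375, edgeR) and with UMIs of both Cdh5 and Kdr required (1.54, adjusted p = 0.0497). S100a4 was more frequent in leukocytes, where 15.9% of healthy and 14.4% of MI cells had a UMI at 1000 UMIs, against 0.502% and 0.936% of gated cells.

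Among the transcription factors, Snai1 (chr2:167538195-167542814, plus strand, GRCm38) gave the largest change. It was at 1.27, 4.77, 3.66 and 4.0 CPM in healthy and at 14.0, 13.2, 18.1 and 11.2 in MI mice. The groups were well apart. This gave a log2 fold change of 1.94 (SE 0.28, adjusted p = 0.0010, edgeR) and ranged from 1.68 to 2.13 when any 1 mouse was left out.

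At equal depth Snai1 was found in few cells. A UMI was found in 0.146% to 0.463% of healthy and 0.817% to 1.70% of MI gated cells at 1000 UMIs (exact permutation test, two-sided p = 0.0286), and without thinning in 0.306% to 0.982% and 3.71% to 8.18%. With any 1 healthy mouse left out the groups at 1000 UMIs still did not overlap, and the exact permutation p was 0.0571. No leukocyte of 69 and of 292 had one. Cells with 5 or more Snai1 UMIs held at most 4.34% of its UMIs in any mouse.

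Snai2 (chr16:14705852-14709385, plus strand, GRCm38), its close relative, went the other way. It was at 23.5, 25.1, 29.7 and 27.0 CPM in healthy and at 21.4, 19.3, 17.8 and 24.1 in MI mice. The ranges met, with MI 256 above Healthy 227. Its log2 fold change was -0.44 (SE 0.12, adjusted p = 0.0199, edgeR), the share of cells at 1000 UMIs went from 2.42% ± 0.16 to 1.93% ± 0.27 (SD over 4 mice, exact permutation p = 0.0571), and the adjusted p was 0.0534 once cells were thinned to equal depth before summing. The Snai2 call was also lost without Healthy 239 (adjusted p = 0.0561), MI 250 (0.0561) or MI 255 (0.0557).

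Zeb1 was the most even of the 10 genes. It was at 130, 122, 97.5 and 96.1 CPM in healthy and at 117, 101, 114 and 111 in MI mice. Healthy mice spanned the MI range. The log2 fold change was -0.09 (SE 0.11, adjusted p = 0.535, edgeR), the share of cells at 1000 UMIs was 10.4% ± 1.8 and 10.5% ± 0.34 (SD over 4 mice, exact permutation p = 0.943), and its level in smooth muscle cells was 67.8 to 120 CPM.

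Zeb2 was at 3.62, 3.36, 8.08 and 4.58 CPM in healthy and at 9.99, 5.80, 14.9 and 7.49 in MI mice. The groups overlapped through Healthy 239. The log2 fold change was 0.86 (SE 0.34, adjusted p = 0.0725, edgeR), while DESeq2 gave an adjusted p of 0.0383. In edgeR it passed the test without Healthy 239 (1.20, adjusted p = 0.0260) and without MI 250 (1.04, adjusted p = 0.0367). Macrophage-like cells made up 0.856% of gated cells and held 43.4% of their Zeb2 UMIs, and without the classes of other cell types the log2 fold change was 0.39 (adjusted p = 0.367, edgeR).

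Counted by share of cells at equal depth, the 4 MI mice all exceeded the 4 healthy mice for 3 of the 10 genes, Vim, Smtn and Snai1, as they did for 17.2% of all genes. The reverse was seen for 0 of the 10 and for 8.22% of all genes. By the same exact permutation test, S100a4 and Snai2 gave p = 0.0571, Tagln and Zeb2 p = 0.0857, Cnn1 p = 0.371, Acta2 p = 0.571 and Zeb1 p = 0.943. With at least 2 UMIs required in place of 1, the 3 genes above in every MI mouse were Vim, Tagln and Acta2, and Smtn (p = 0.0571) and Snai1 (p = 1, in 1 MI mouse only) no longer were, by the same exact permutation test. Of all genes, 5.55% stood above and 3.73% below at that setting. Without thinning 9 of the 10 genes stood above in every MI mouse, all but Acta2, as did 87.4% of all genes.

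The classes of endothelial cells differed in which of the genes they held. The 10 genes and the gate genes were left out of the clustering, but the cells were clustered on their other genes, so differences between classes are a description without a test. Plvap-high-like cells (2214 cells) came from MI mice in 99.5% of cases, so this class cannot be compared between groups. Its leading genes included Plvap, which forms the diaphragms of fenestrae and caveolae, Lrg1, the venular chemokine receptor Ackr1 and, although it was not used for clustering, Tagln.

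Tagln was concentrated in the Plvap-high-like class. It was at 134, 53.5, 90.5 and 58.8 CPM there in MI 244, 250, 255 and 256, and at most 28.2 in any other class of an MI mouse with at least 20 cells. The value of MI 256 rests largely on 1 cell, which held 73 of the 108 Tagln UMIs of the class in that mouse. The class held 82.6%, 79.3%, 91.5% and 80.6% of the gated Tagln UMIs of these mice while making up 15.8%, 10.1%, 26.5% and 9.81% of their gated cells. At 1000 UMIs, 4.22% of its MI cells had a Tagln UMI (93 of 2202), against 0.239% of the other gated MI cells. With the class left out, Tagln in MI mice was at 7.21, 2.03, 3.8 and 2.49 CPM and the log2 fold change was 1.61 (SE 0.76, adjusted p = 0.123, edgeR).

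**Figure D3:**
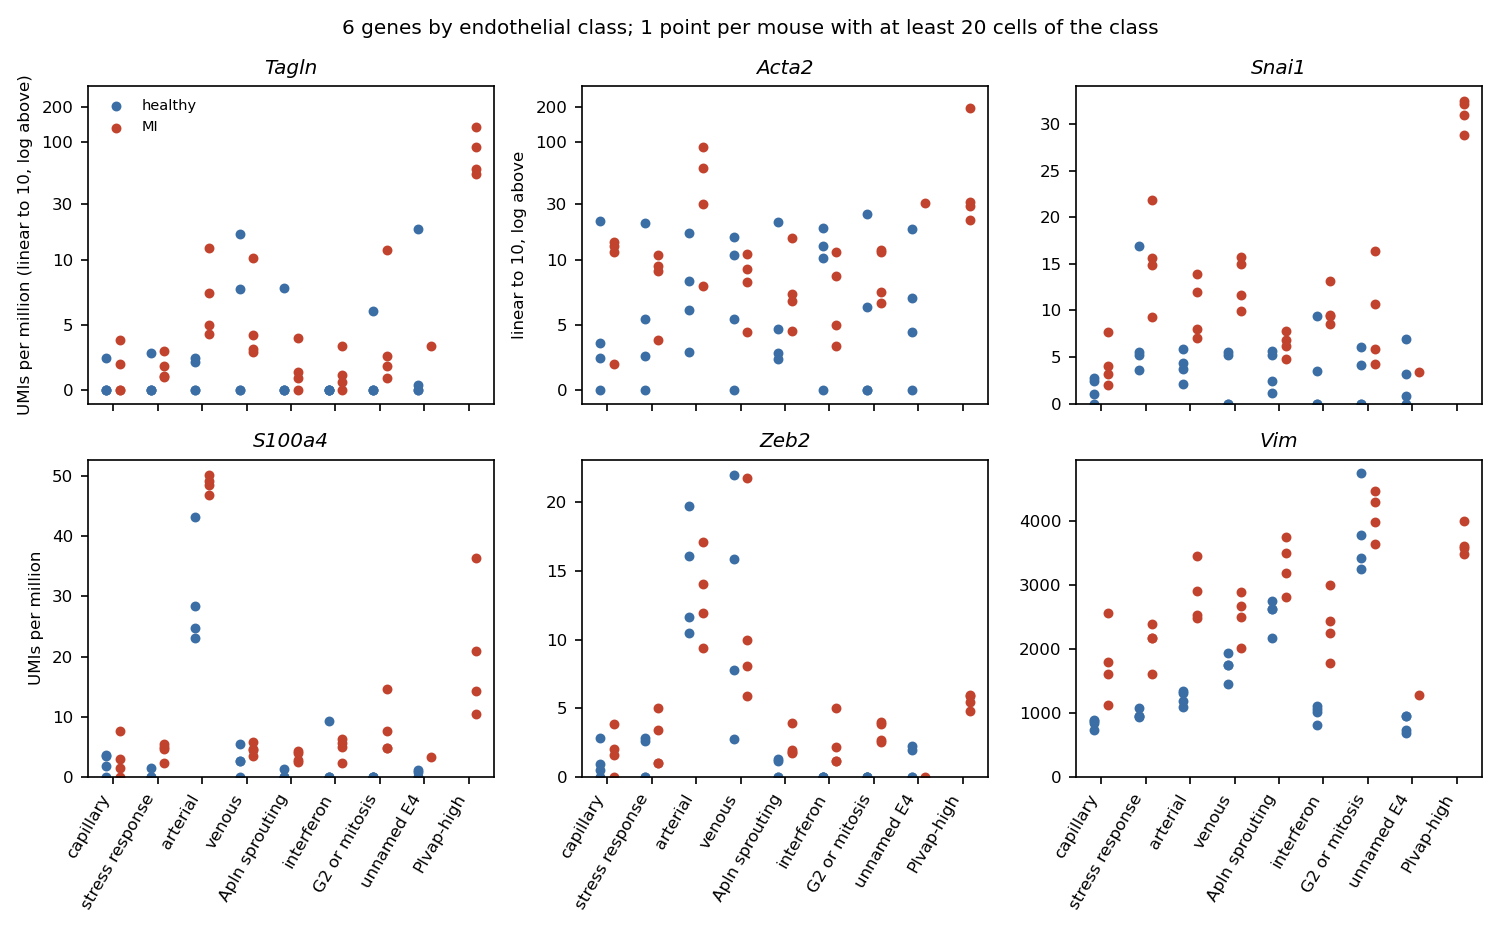
Levels of 6 genes (CPM) in 9 classes of gated cells, with 1 point per mouse with at least 20 cells of the class. The y axis of Tagln and Acta2 is linear to 10 and logarithmic above. Among these classes Tagln and Snai1 are highest in Plvap-high-like cells, S100a4 in arterial-like cells of both groups, and Vim in G2 or mitosis-like cells.

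Among the classes drawn in the plot of levels by class, Snai1 in MI mice was highest in the same class, at 32.2, 31.0, 32.5 and 28.8 CPM, and was at most 21.9 in the others. Unlike for Tagln, the change did not rest on this class: the class held 29.9% to 55.5% of the Snai1 UMIs of MI mice, and without it the log2 fold change was 1.47 (adjusted p = 0.0036, edgeR). Vim without the class rose by a log2 fold change of 1.12 (adjusted p = 0.00018). Acta2 in the class was at 31.2, 21.7, 28.9 and 196, the last value being MI 256, and without the class its log2 fold change was 0.73 (adjusted p = 0.357).

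S100a4 was a gene of arterial-like cells in both groups. There it was at 23.1, 24.8, 43.1 and 28.5 CPM in healthy and at 48.5, 50.2, 49.2 and 46.8 in MI mice, and the log2 fold change within the class was 0.53 (SE 0.18, adjusted p = 0.0575, edgeR). Arterial-like and macrophage-like cells held 34.8% and 24.4% of its gated UMIs. Zeb2 was at 9.42 to 19.7 CPM in arterial-like and at 2.74 to 22 in venous-like cells, and at most 5.99 in the other classes drawn. It was far higher in the reference cells, at 87.7 to 283 in smooth muscle cells, 110 to 253 in pericytes and 224 to 513 in leukocytes.

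In healthy mice Vim was at 740 to 893 CPM in capillary-like cells and at 682 to 957 in the unnamed class, and it was highest in G2 or mitosis-like cells, at 3242 to 4752 in healthy and 3634 to 4458 in MI mice. In those dividing cells the groups overlapped. Zeb1 was between 76.8 and 178 in every endothelial class drawn and in both groups, and at 50.8 to 60.01 in macrophage-like cells.

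Within classes, 8 classes had enough cells per mouse for a test of MI against healthy, the cardiomyocyte-like class in 4 MI and 3 healthy mice. The 10 genes gave 8 calls, all higher in MI: Vim in 6 classes, Smtn in stress response-like cells and Acta2 in arterial-like cells. Vim rose in arterial-like cells (log2 fold change 1.14, SE 0.12, adjusted p = 2.3e-05), stress response-like cells (1.02), interferon-like cells (1.17), capillary-like cells (1.02), cardiomyocyte-like cells (1.47) and venous-like cells (0.44, adjusted p = 0.0394). The call in venous-like cells was lost without Healthy 227, 228 or 239 or without MI 244, 250 or 255 (adjusted p of 0.0669 to 0.0978, edgeR), and the other 5 Vim calls were kept with any 1 mouse left out. Vim did not pass the test in Apln sprouting-like cells, where healthy mice already held 2174 to 2745 CPM (0.29, adjusted p = 0.0916, and 0.35, adjusted p = 0.0297, without MI 256). Of all tested genes, 6.26% were called higher and 6.77% lower in stress response-like cells, 5.83% and 6.75% in arterial-like, 2.6% and 2.48% in capillary-like, 4.85% and 6.04% in Apln sprouting-like, 3.2% and 4.42% in venous-like, 2.63% and 3.45% in interferon-like, 1.78% and 1.93% in G2 or mitosis-like and 1.24% and 3.14% in cardiomyocyte-like cells.

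No gene of the 10 was called lower within a class, by edgeR. At an unadjusted p under 0.05 there were 15 higher and 2 lower values among 37 tests (11.3% higher and 12.4% lower over the 58882 tests of all genes in these classes), the lower ones being Snai2 in capillary-like cells (log2 fold change -0.87, SE 0.28, adjusted p = 0.0766) and Zeb1 in Apln sprouting-like cells (-0.27, adjusted p = 0.171). Acta2 in arterial-like cells was at 8.39, 2.91, 16.8 and 6.19 CPM in healthy and at 8.01, 29.5, 59.9 and 90.3 in MI mice. MI 244 was within the healthy range. The log2 fold change was 2.16 (SE 0.64, adjusted p = 0.0354, edgeR), but the adjusted p was above 0.05 without Healthy 227, 228 or 240 or without MI 255 or 256 (0.0695 to 0.0994), and it was 0.0529 without the copied cells. Smtn in stress response-like cells rose by a log2 fold change of 0.52 (adjusted p = 0.0232), and this call was lost without Healthy 228, Healthy 239, MI 244, MI 250 or MI 255.

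The balance between the contractile transcripts in gated cells was set beside that in mural cells of the same mice. In smooth muscle cells Tagln made up 20.03% to 29.0% of the UMIs of Tagln and Acta2 together, and in pericytes 18.1% to 34.7%, over all 8 mice. In Plvap-high-like cells of MI mice it made up 81.1%, 71.1% and 75.8% in MI 244, 250 and 255, outside the mural range, and 23.1% in MI 256, inside it. The share of MI 256 rests on very few cells: 1 cell held 182 of the 360 Acta2 UMIs of the class, and 1 cell held 73 of its 108 Tagln UMIs. In arterial-like cells of MI mice the share was 61.0%, 14.5%, 11.1% and 4.60%. These shares are given without a test.

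**Figure D4:**
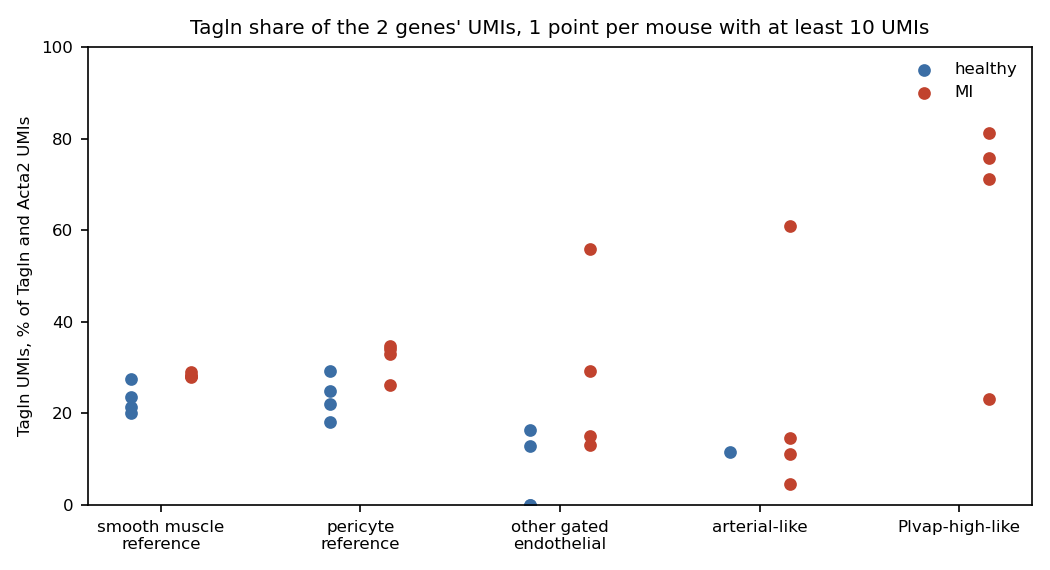
Share of Tagln in the summed UMIs of Tagln and Acta2 (y axis, %) in reference mural cells and in gated endothelial cells, with 1 point per mouse with at least 10 such UMIs. Mural cells lie between 18.1% and 34.7%, and 3 of 4 MI mice lie above 70% in Plvap-high-like cells.

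The 90 gated cells with 5 or more Tagln UMIs also held endothelial genes. Pecam1 had a UMI in 90 of 90, Acta2 in 16, the myosin light chain Myl9 in 31, Cnn1 in 3, Notch3 in 2 and Pdgfrb in 0, and 79 of the 90 were Plvap-high-like. A list of endothelial genes made up 0.758% of their UMIs, a list of mural genes 0.0220% and a list of contractile genes 0.198%. In 1877 Plvap-high-like MI cells with none of Acta2, Tagln and Cnn1 these shares were 0.834%, 0.0346% and 0.123%, and in smooth muscle cells of MI mice 0.377%, 0.506% and 1.48%. The gate asked for Cdh5 or Kdr and 0 UMIs of Rgs5, Dcn, Myh11 and Ptprc, which partly sets the endothelial and mural values of gated cells. Smooth muscle cells were chosen to hold more Rgs5 and Myh11 than Cdh5, Kdr and Pecam1, which partly sets theirs. The cells with high Tagln were deep, with a median of 10870 UMIs against 5110 in the 1877 cells. The part of depth or of droplets with 2 cells in the 90 cells was not tested. The 4 such cells of MI 256 differed from the rest, with an endothelial share of 0.384% and a contractile share of 0.586%.

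Among the 90 cells, 58 (64.4%) had a UMI of at least 1 of the 4 transcription factors, against 1160 (61.8%) of the 1877 shallower Plvap-high-like cells without a contractile UMI. Snai1 was found in 23 of the 90 and Zeb1 in 46.

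Co-expression within cells was compared with what the separate shares predict. For each mouse the number of gated cells with both genes at 1000 UMIs was set against the product of the 2 shares, and the log2 ratio was tested over mice with a two-sided exact sign-flip test, whose smallest p for 8 mice is 0.00781. A contractile gene (Acta2, Tagln or Cnn1) was found with a transcription factor in 47 cells, where 48.5 were predicted. In healthy mice there were 9 against 11.7, and in MI mice 6, 11, 16 and 5 against 9.34, 7.26, 13.2 and 7.00. The mean log2 ratio was -0.29 (SD 0.95 over 8 mice, exact p = 0.516), below 0 in 5 of 8 mice.

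Acta2 and Tagln occurred together in 10 cells, all in MI mice, where 1.19 were predicted. There were 1, 2, 3 and 4 such cells in MI 244, 250, 255 and 256 against 0.214, 0.104, 0.580 and 0.110 predicted, and 0 in each healthy mouse against at most 0.169. All 4 MI mice were above prediction. The test over 8 mice gave p = 0.125 (exact sign-flip test). With at most 0.169 cells predicted per healthy mouse, 0 was the likeliest count there, so those mice could add little. The test thus had little room to reach 0.00781, and no conclusion is drawn from its p. With cells carrying Rgs5, Dcn or Myh11 let in, the same pair was found in 196 cells against 7.61 (mean log2 ratio 4.06, above prediction in 8 of 8 mice, exact p = 0.00781), and a contractile gene with a transcription factor in 120 against 92.4 (mean log2 ratio 0.34, exact p = 0.0156).

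**Figure D5:**
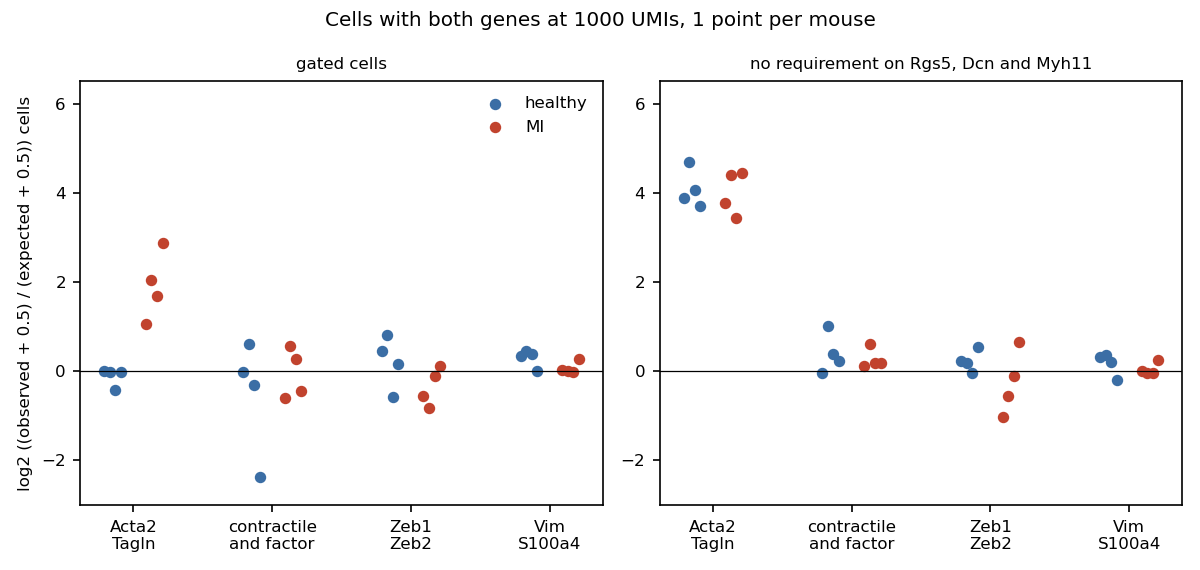
Log2 ratio of observed to predicted cells holding both genes at 1000 UMIs (0.5 added to each), with 1 point per mouse, in gated cells (left) and with cells carrying Rgs5, Dcn or Myh11 let in (right). Acta2 with Tagln lies above 0 in the 4 MI mice on the left and in all 8 mice on the right, while a contractile gene with a transcription factor scatters about 0 on the left.

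Zeb1 with Zeb2 was found in 14 cells against 16.2 predicted (exact p = 0.734), and at 2000 UMIs in 33 against 49.6 (exact p = 0.00781). At 1000 UMIs without the classes of other cell types, the mean log2 ratio turned from -0.07 to 0.22 (exact p = 0.203). Snai1 with Snai2 was found in 2 cells against 4.43 (exact p = 0.172). Acta2 with Cnn1 was found in 1 cell against 0.0648, and Tagln with Cnn1 in 1 against 0.0237 (exact p = 1 each), too few to compare. Vim with S100a4 was found in 146 cells against 135 (mean log2 ratio 0.18, above prediction in 7 of 8 mice, exact p = 0.0469, not adjusted for the 7 pairs fixed for this test). This p was not stable: it was 0.0625 to 0.0938 without any 1 mouse other than MI 255, 0.102 with another random draw for thinning and 0.992 without the copied cells (mean log2 ratio 0.00), all by the exact test.

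At full depth, a cell with at least 2 of the 3 contractile genes and a transcription factor was found 10, 5, 13 and 7 times in the MI mice, 35 of 14311 cells, and in 0 of 10921 healthy cells, which allows a share of up to 0.0275%. At 1000 UMIs there was 1 such cell of 14311 in MI and 0 of 9754 in healthy mice, which allows up to 0.0308%, so a difference was not detectable at equal depth.

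Gated cells with a contractile UMI were compared with those without in the 6 mice with at least 10 such cells at 1000 UMIs (338 cells, Healthy 227 and 228 left out). Endothelial genes made up 0.793% of UMIs in cells with and 0.811% in cells without a contractile UMI (exact sign-flip test, two-sided p = 0.344, smallest possible 0.0312). Mural genes made up 0.0192% and 0.0217% (exact p = 0.531), other contractile genes 0.136% and 0.107% (higher in 5 of 6 mice, p = 0.0625) and fibroblast genes 0.00840% and 0.00362% (p = 0.0938). With cells carrying Rgs5, Dcn or Myh11 let in, the endothelial share was lower by 0.178 percentage points and the mural share higher by 0.189 in cells with a contractile UMI (exact p = 0.00781 each). The share of other contractile genes was then higher by 0.452 and that of fibroblast genes by 0.0587 percentage points (exact p = 0.00781 each).

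The wider programme moved unevenly in gated cells. Of 17 tested further mesenchymal genes 14 rose and 1 fell after MI (median log2 fold change 1.11), where 18.9% of all tested genes rose and 18.7% fell, led by the matrix protein tenascin C (Tnc, 3.18, adjusted p = 0.0011), the membrane matrix protease Mmp14 (3.09), biglycan (Bgn, 2.65) and Tgfbi (2.46). Of 12 tested contractile genes outside the 10, 1 rose, the actin cross-linker Flna (0.66, adjusted p = 0.0015), and the median was 0.02. Of 18 tested genes of TGF-β signalling and EndMT control 5 rose, among them Foxc2 (1.89), and 7 fell, among them the inhibitory Smad6 (-1.38) and the ligand Tgfb2 (-1.14).

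Of 16 endothelial genes 2 rose (Sox18, 1.59, and Erg, 0.33) and 4 fell, including the VEGF receptor Kdr (-0.91) and the phosphatase Ptprb (-0.85), with a median of -0.15, counts near the 18.9% and 18.7% of all tested genes. Kdr is one of the 2 genes that define the gate, so its level is not free of the selection. All fold changes in these lists are log2 and come from the same edgeR fit.

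Markers of other cell types were tested in the same fit, in which 18.9% of all tested genes rose and 18.7% fell. Of 7 tested mural genes 3 rose (Kcnj8, 1.65, Abcc9, 1.43, and Mcam, 0.59) and 1 fell (Cox4i2, -0.92). Of 9 tested fibroblast genes 7 rose and 1 fell (Col3a1, 4.14, and Pdgfra, -2.14), with a summed level of 15.4 to 32 CPM in healthy and 44.8 to 65.4 in MI mice. Of 12 leukocyte genes 8 rose, with a summed level of 80.0 to 430 and 627 to 1268. With the gated UMIs of each group pooled, Notch3 was at 0.849 CPM in healthy and 0.697 in MI mice (21 and 51 UMIs), and Pdgfrb at 0.445 and 0.451 (11 and 33 UMIs). Of 7 cardiomyocyte genes 0 rose and 2 fell (Tnni3, -0.95, and Myl2, -0.80), with a median of -0.80. Leaving out the classes named after other cell types kept the calls for Vim, Snai1, Tagln, Smtn and Snai2. With 8 further marker genes of other cell types required at 0, Tagln was at 3.55 (adjusted p = 0.0174) and Zeb2 at 0.48 (adjusted p = 0.336) on the log2 scale.

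The promoters of 2 genes that rose, Snai1 and Vim, are shown because the data turn on them (250 bases before to 50 bases after the start site, plus strand, RefSeq, GRCm38.p6). A promoter was found for 7 of the 10 genes in the table used. The capitals mark the motif CAGGTG, an E-box bound by Snail and Zeb factors, here on the minus strand and so read as CACCTG, in Snai1 (chr2:167537945-167538244), and the motif TATAAA in Vim (chr2:13574061-13574360).
Snai1: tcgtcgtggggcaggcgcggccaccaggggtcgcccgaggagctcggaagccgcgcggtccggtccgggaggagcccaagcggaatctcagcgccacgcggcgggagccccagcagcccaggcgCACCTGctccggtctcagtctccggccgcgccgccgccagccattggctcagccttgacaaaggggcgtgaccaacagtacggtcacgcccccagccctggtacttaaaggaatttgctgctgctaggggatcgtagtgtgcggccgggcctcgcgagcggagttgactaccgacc
Vim: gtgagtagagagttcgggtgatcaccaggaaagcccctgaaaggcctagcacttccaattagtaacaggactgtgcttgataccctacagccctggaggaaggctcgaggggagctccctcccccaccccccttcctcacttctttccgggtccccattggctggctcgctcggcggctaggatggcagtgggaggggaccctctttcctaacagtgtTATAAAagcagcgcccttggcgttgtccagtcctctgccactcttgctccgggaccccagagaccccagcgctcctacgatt

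Of the 7 genes with a promoter used here, only Snai1 held CAGGTG on either strand, 126 bases before the start site. Of 32817 promoters of this length, 20.2% held it. TATAAA was found in Vim, 32 bases before the start, and in S100a4, and in 13.6% of all promoters. The CArG box in its strict form, with only A or T in the core, was in none of the 7 and in 1.63% of all promoters. Looser forms of it were not searched. A match is a description of these letters in this window and no evidence of binding.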

How the data were processed

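The authors deposited a table of raw UMI counts (16791 genes, 31028 cells), made from 10X Genomics 3′ libraries with Cell Ranger on mm10 with Ensembl 84 annotation, in which cells under 400 genes or above 20% mitochondrial UMIs had been removed. The submitters' processing notes also name R 3.5.2 and Seurat 2.3. Libraries held 6764977 to 8793655 UMIs in healthy and 15865234 to 27244947 in MI mice. The number of unused sample columns was 0.

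The 10 genes, the further lists and the tests were chosen with earlier results of these data known. All 10 genes were named in every comparison, and other genes came only from the lists, with up to 4 called genes of the largest fold change each. Counts of gated cells were summed per mouse and tested with edgeR 4.0.16 (TMM, filterByExpr, quasi-likelihood test) in R 4.3.3, with Benjamini-Hochberg adjustment over all genes tested and a threshold of 0.05. DESeq2 1.42.0 was an alternative. Shares of cells were taken after thinning each cell to 1000 UMIs, leaving out shallower cells, and tested with exact permutation (two-sided) over the 70 splits of 4 against 4 mice. Intervals are exact (Clopper-Pearson, 95%), and limits for a count of 0 are 3 counts of the total. Both cover counting error only. Gated cells were clustered with Seurat 5.3.0 at resolution 0.6 without the 10 genes and the gate genes, and a class was tested where mice had at least 20 cells of it.

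Mural cells had at least 3 UMIs of Rgs5 and Myh11 together, more of these than of Cdh5, Kdr and Pecam1, and 0 of Ptprc and Dcn, and smooth muscle cells were those with at least 2 of Myh11. No doublet caller was run. The gate drops cells with mural, fibroblast or leukocyte UMIs. Promoters came from RefSeq and gene positions from GENCODE M21. The scripts were tested on simulated counts. Alternatives were other normalization, filters, gates, depths, at least 2 UMIs in place of 1 for shares of cells, resolutions, the copied cells left out and each mouse left out. A few genes of the lists are not reported here by name.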

Additional observations from a re-analysis of the deposited data

Results flagged for a closer look

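Over 203 groups of 4 mice, 9 were flagged because 1 mouse was set apart from the other 3 by a gap near the whole range. Class groups with few UMIs of the gene were among the 203 but could not be flagged. The 9 can therefore not be set against the 1 in 20 groups that chance flags. Healthy 239 was the highest healthy mouse for Acta2 in gated cells (19.8 CPM against 3.98 to 5.12), for Cnn1 (0.152 against 0, from 1 UMI, or 0.0348% of cells at 1000 UMIs) and for the share of cells with S100a4 (0.870% against 0.293% to 0.391%). Without the copied cells the other healthy mice were at 0.0760% to 0.391% for S100a4, a wider spread under which this flag does not hold. MI 256 was the highest MI mouse for Cnn1 (0.814 against 0.140 to 0.210) and for Acta2 in Plvap-high-like cells (196 against 21.7 to 31.2), and the lowest for Smtn in stress response-like cells (87.6 against 116 to 122). Healthy 227 was the highest healthy mouse for Vim in stress response-like cells (1081 against 942 to 960). MI 244 was the highest MI mouse for Tagln in G2 or mitosis-like cells (12.04 against 0.965 to 2.66).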

How the results depend on the processing

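No paired analysis was possible because the mouse numbers are not shared between the healthy and MI groups. Of the 10 genes, 2 were called higher and 0 lower when cells were thinned to 1000 UMIs and then summed (12.3% and 12.1% of all genes; 5 and 1 of the 8 tested, and 37.4% of all genes in either direction, at an unadjusted p under 0.05, edgeR), and 3 higher and 0 lower when the gate was applied to thinned cells (11.8% and 11.9% of all genes; 5 and 1 unadjusted, against 36.4% of all genes). Leaving out 1 mouse gave 3 to 6 higher (14.4% to 21% of all genes) and 0 to 1 lower (13.3% to 20.5%). Acta2 turned to -0.86 on the log2 scale without the requirement on Rgs5, Dcn and Myh11. By share of cells, 9 genes lay above without thinning (87.4% of all genes) and 3 to 6 with 1 mouse left out (18.4% to 24.5% of all genes), and 1 lay below with the gate applied to thinned cells (7.92% of all genes) and 0 to 1 with 1 mouse left out (9.09% to 12.1%). The Snai2 difference was 3.69 percentage points without thinning, and the Zeb1 difference ranged from -0.610 to 0.608 with 1 mouse left out (-0.263 without Healthy 240 and -0.0538 without MI 255). Within classes, resolution 0.3 gave 13 higher and 1 lower in 33 tests (6.97% and 7.56% over all genes), and leaving out 1 mouse gave 5 to 11 and 0 to 1 (1.93% to 5.76% and 2.49% to 7.12% over all genes).

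For pairs in 1 cell, the mean log2 ratio of a contractile gene with a transcription factor was 0.34 without the requirement on Rgs5, Dcn and Myh11, -0.82 in the 4 MI mice within Plvap-high-like cells (a setting chosen after seeing the data), -0.0043 with another random draw for thinning and -0.41 to 0.013 with 1 mouse left out. That of Zeb1 with Zeb2 ranged from -0.195 to 0.036 with 1 mouse left out (0.0041 without Healthy 239 and 0.00045 without MI 244), 0.033 with 8 further genes required at 0, and 0.22 without classes of other cell types, a setting chosen after seeing the data. Vim with S100a4 was at -0.00062 without copied cells and at 0.15 to 0.21 with 1 mouse left out, and passed the test in 1 of those 8. For cells with a contractile UMI, the endothelial difference was -0.178 and the mural difference 0.189 percentage points without the gate's requirement on Rgs5, Dcn and Myh11. With at least 2 contractile UMIs, met by 40 cells in 2 mice, the mural difference was 0.0058. The difference of other contractile genes was 0.137 at that setting, against 0.029 in the main setting. The mural difference was also -0.0039 to 0.00080 with 1 mouse left out, and 0.00098 without Plvap-high-like cells. The fibroblast difference was -0.0010 in Plvap-high-like cells, the last 2 settings being chosen after seeing the data. The causes were not tested. Over single genes and pairs, under other settings 172 values kept their direction and side of the threshold, 15 newly passed it, 18 no longer did and 6 reversed. With 1 mouse left out these counts were 164, 6, 20 and 6. Depth limits the low genes: Cnn1 had 21 UMIs in all gated cells, and Tagln did not pass the filter once cells were thinned.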

Other observations

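Among the 45 pairs of the 10 genes, 21 had at least 5 predicted cells at 1000 UMIs. Smtn with S100a4, a pair not fixed for the test, was found in 6 cells against 15.3 predicted, below prediction in 8 of 8 mice (mean log2 ratio -1.21, two-sided exact sign-flip test, p = 0.00781, the smallest possible and not adjusted for the 45 pairs). The pair was picked from the 45 after the values were seen. In healthy mice with few S100a4 cells the predicted number was small, so 0 cells there counted as below prediction. The direction and the p are therefore given as a description. The classes also differed in the levels of these genes, and a link with the pair was not tested. Among the classes drawn in the plot of levels by class, S100a4 was highest in arterial-like cells. Smtn was at 33.6 to 59.5 CPM in healthy and 58.2 to 74.7 in MI arterial-like cells, and at 116 to 170 in G2 or mitosis-like cells.

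Over 17 class and group levels, the genes whose log2 levels most resembled those of Zeb2 were Mgp (Pearson r = 0.946), Hs3st1 (0.940) and Wls (0.931), and those for Vim were Ddx1 (0.948), Cda (0.944) and Prkcdbp (0.937). These levels share libraries and depth and are given as a description.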
